A study of Mus musculus with 23 samples.

Results

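The mitochondrial carrier family Slc25 was examined in scraped colon mucosa of mice fed dietary heme, with and without PPARα. Its members were all genes whose platform symbol starts with Slc25a and a number, each read from a probe set that is assigned to a single gene, taking the brightest where a gene had several. This gave 46 genes of 18820 on the array. Expression was measured with 1 Affymetrix Mouse Gene 1.1 ST array per mouse on a single plate. The 4 groups were of male mice aged 7-9 weeks when the diets began. KO heme mice (n = 6) and KO control mice (n = 6) were 129S4/SvJae-Pparatm1Gonz/J, in which Ppara is disrupted throughout the body. WT heme mice (n = 6) and WT control mice (n = 5) were 129S1/SvImJ. The heme diet held 0.5 µmol/g heme in a Westernized base, and the control diet was that base alone, with 40% of energy from fat and a low calcium content of 30 µmol/g, each fed for 14 days. KO and WT mice were of different substrains, so a difference by genotype and one by substrain cannot be told apart.

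Slc25 proteins are small carriers of the inner mitochondrial membrane, built from a repeated membrane domain, which exchange metabolites between cytosol and matrix. They move adenine nucleotides and phosphate for ATP synthesis, acylcarnitines for β-oxidation, di- and tricarboxylates, amino acids, cofactors and iron, and some members act as uncoupling proteins or have no settled substrate. The carnitine carrier Slc25a20 is a well-known PPARα target in liver, and the mitoferrins deliver the iron used for heme synthesis in the matrix. The comparison of the diets in KO mice asked whether the carriers respond to heme when PPARα is absent, and the comparison in WT mice gives the response when it is present.

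Values are linear signals, the antilog of the deposited log2 expression, and differences are log2 fold changes of heme over control diet or of KO over WT with their SE. A gene was called when limma gave an adjusted p below 0.01 over all 18820 genes and its mean linear signal exceeded 20 in either or both of the groups. By that signal 43 members (93.5%) were expressed in at least 1 group, against 76.5% of all genes. Slc25a21, Slc25a31 and Slc25a54 stayed at or under 20 in every group.

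The most alike pair of the 23 arrays had r = 0.9975. KO heme replicate 1 stood somewhat apart, with a mean r of 0.9914 with its group, against 0.9928 to 0.9963 for the other arrays. Ppara itself, of which the region for the ligand-binding domain is disrupted in KO mice, had signals of 163 to 238 in KO heme mice and 240.0 to 378 in KO control mice, against 344 to 475 in WT heme mice and 444 to 560.2 in WT control mice, so that the signal was lower but not lost in KO mice, with no overlap between genotypes on either diet. All 9 epithelial markers were above 20 in every group, with summed signals of 33790.0 to 36720.0 in KO heme, 33520.0 to 34980.0 in KO control, 32810.0 to 36400.0 in WT heme and 32590.0 to 34920.0 in WT control mice. On heme 3 of the 9 were called higher and 2 lower in KO mice, and 2 higher and 2 lower in WT mice (55.6% and 44.4% called, against 18.4% and 17.9% of all genes). Of 5 absorptive colonocyte markers 1 was called higher in each genotype, and of 4 leukocyte markers measured 1 was called lower in each. Brown fat markers (3 of 3, among them Ucp1) were under 20 in each group, as were 3 of 5 skeletal muscle markers. The 14 smooth muscle markers had a summed signal of 3521 to 6071 in KO heme mice and 3685 to 9535 in KO control mice. In WT mice it was 3875 to 5976 on heme and 6721 to 19410 on the control diet, highest in control replicates 1 and 2, and these groups did not overlap. On heme 1 of the 14 was called lower in KO mice and 12 in WT mice. Goblet cell markers (4 measured) had summed signals of 27750.0 to 32880.0 in KO heme and 35820.0 to 36540.0 in KO control mice, and 28300.0 to 33790.0 in WT heme and 34640.0 to 35610.0 in WT control mice, without overlap. In these bulk samples fewer cells of a type and less RNA per cell cannot be told apart.

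More carriers were called higher than lower on heme in both genotypes. With smooth muscle signal as a covariate the WT calls were even, at 4 higher and 4 lower. That is 8.7% of the members each way, against 3.56% higher and 2.98% lower of all genes. In KO mice 20 of the 46 members were called (43.5%, against 18.4% of all genes), 15 of them higher (32.6%, against 9.23%) and 5 lower (10.9%, against 9.20%). In WT mice 15 were called (32.6%, against 17.9%), 11 higher (23.9%, against 9.60%) and 4 lower (8.7%, against 8.29%). Among genes with a mean signal above 20 the shares called were 24.1% in KO mice and 23.4% in WT mice. The shares called higher were well above those of all genes, whereas the shares called lower were close to them. With arrays centred on their median the members split into 16 higher and 5 lower in KO mice and 10 higher and 3 lower in WT mice, against 10.7% higher and 6.24% lower of all genes in KO mice and 9.81% and 6.11% in WT mice. The median log2 fold change of the members was 0.14 in KO mice and 0.10 in WT mice, and -0.01 in each over all genes tested. The diet groups did not overlap for 12 members in KO mice (26.1%, against 13.9% of all genes) and for 17 in WT mice (37%, against 15.1%).

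Of the calls, 14 were made in both genotypes and in the same direction, which is 70.0% of the KO calls and 93.3% of the WT calls. Shared calls were common over all genes too. There 1259 were higher and 1023 lower in both, of 3469 called in KO mice and 3367 in WT mice. Higher in both were Slc25a20, Slc25a34, Slc25a4, Slc25a10, Slc25a24, Slc25a48, Slc25a51, Slc25a1, Slc25a13 and Slc25a5, which are 21.7% of the members against 6.69% of all genes. Lower in both were Slc25a23, Slc25a36, Slc25a27 and Slc25a35 (8.7%, against 5.44%). In KO mice Slc25a22, Slc25a30, Slc25a12, Slc25a39 and Slc25a3 were also called higher and Slc25a42 lower, and in WT mice Slc25a11 was called higher. KO heme replicate 1 had the lowest signal of its group for 10 of the 16 members called higher in either genotype, among them Slc25a34, Slc25a10, Slc25a24 and Slc25a13. Without that mouse 22 members were called in KO mice (against 18.6% of all genes) and 17 in WT mice (against 18.6%). The other 25 members were called in neither genotype, with log2 fold changes of -0.16 to 0.36 in KO mice and -0.20 to 0.56 in WT mice, so that 45.7% of the members were called in at least 1 genotype against 24.2% of all genes.

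**Figure D1:**
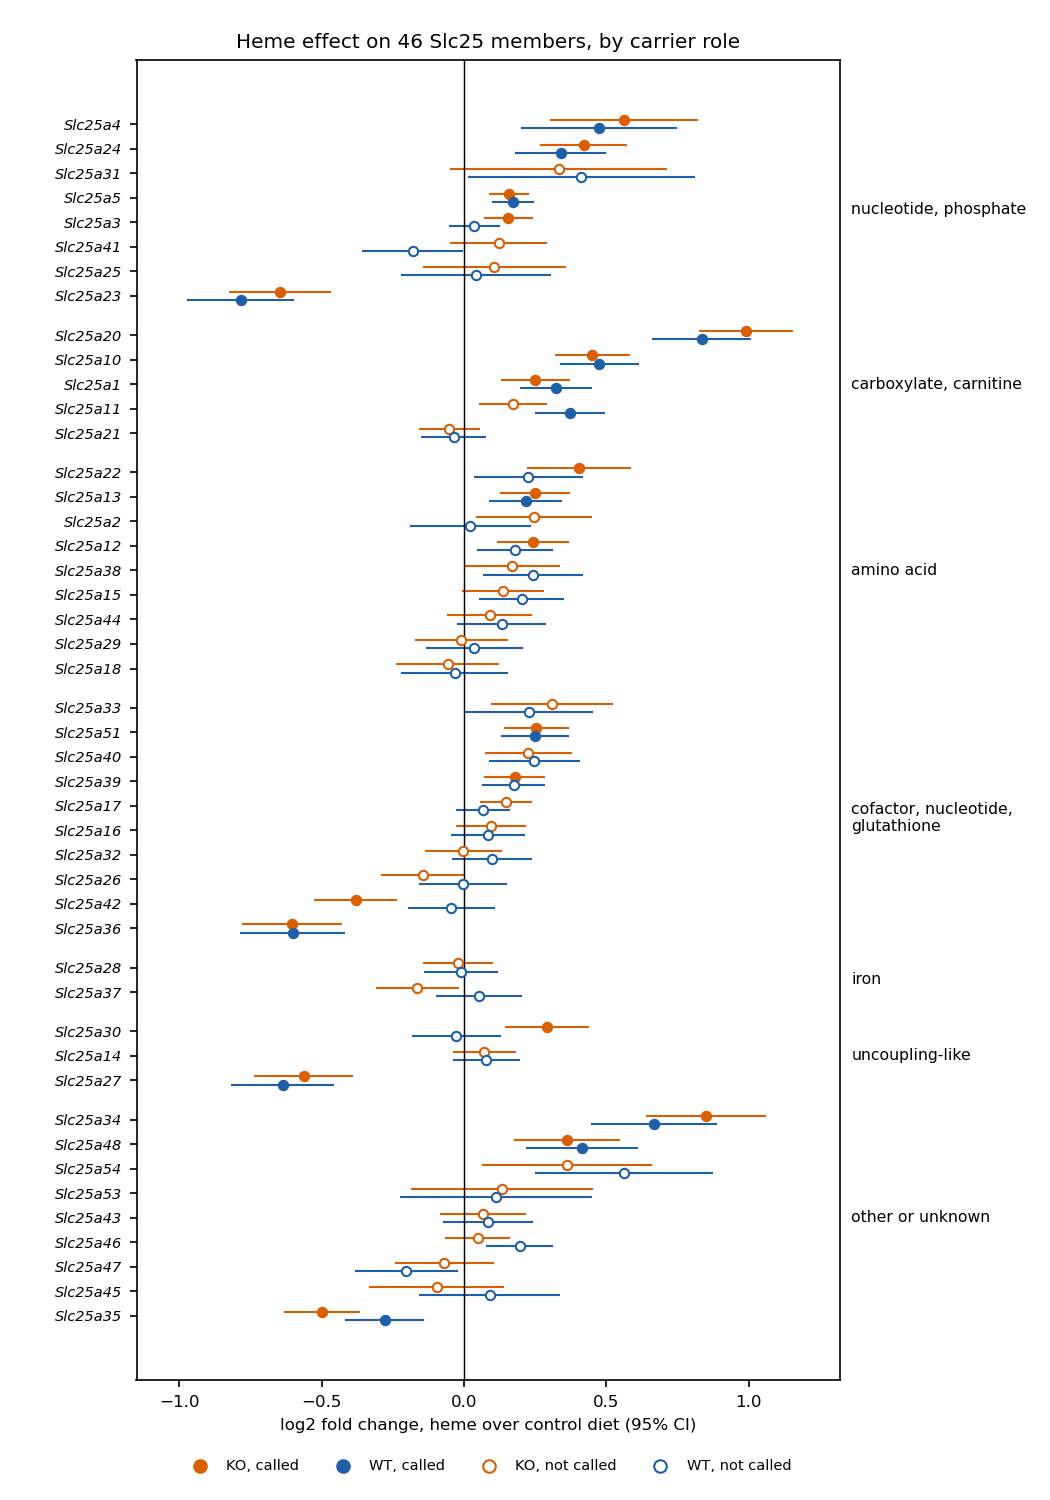
Heme effect on each of the 46 members, grouped by what the carrier moves and ordered within a group by the effect in KO mice. Points are log2 fold changes of heme over control diet from limma in KO (orange) and WT (blue) mice, bars are 95% confidence intervals, and filled points were called. The effects ranged from -0.65 to 0.99 in KO mice and from -0.78 to 0.83 in WT mice.

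Among the 5 carboxylate and carnitine carriers, 3 were called higher in KO mice (60%, against 9.23% of all genes) and none lower. In WT mice 4 were called higher (80%, against 9.60%) and none lower. In each genotype 4 of the 5 had a positive log2 fold change. Slc25a20, the carnitine-acylcarnitine carrier that brings fatty acids into the matrix, had the largest rise of the family in both genotypes. Its promoter is shown because the gene leads the response and is known as a PPARα target. It lies at chr9:108661886-108662185 on the plus strand of GRCm38.p6, 250 bases before to 50 after the RefSeq gene start, and has no capitals because none of the motifs searched (given further on) was found in it:
Slc25a20: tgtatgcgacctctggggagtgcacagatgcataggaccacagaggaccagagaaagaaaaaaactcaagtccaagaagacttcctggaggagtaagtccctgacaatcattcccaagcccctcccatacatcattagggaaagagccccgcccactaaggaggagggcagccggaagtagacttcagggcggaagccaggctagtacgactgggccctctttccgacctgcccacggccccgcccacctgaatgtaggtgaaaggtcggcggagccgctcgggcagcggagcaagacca
The lowest, median and highest signals of Slc25a20 were 1785, 1882 and 2161 in heme-fed KO mice, against 836, 985 and 1109 in control KO mice. In WT mice they were 1690.2, 1792 and 1895 on heme (lowest, median and highest) and 879, 941, 967, 993 and 1284 in the 5 control mice. On either background every heme-fed mouse was above every control mouse. For Slc25a20 the log2 fold change came to 0.99 ± 0.078 (SE) in KO mice and 0.83 ± 0.082 in WT mice (limma, adjusted p = 4.64e-09 and 1.66e-07).

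Slc25a10, the dicarboxylate carrier that exchanges malate or succinate for phosphate, rose by about the same amount in both genotypes. Signals of Slc25a10 were 1525, 1689 and 1768 (lowest, median and highest) in heme-fed KO mice and 1168, 1211 and 1273 in control KO mice. The WT values were 1495, 1791 and 1987 on heme, against 1135, 1223, 1258, 1341 and 1350.0 in the 5 controls. Again the heme-fed mice were above all controls. Slc25a10 differed by 0.45 ± 0.062 (log2, SE) in KO mice and 0.47 ± 0.065 in WT mice, with adjusted p = 1.2e-05 and 1.18e-05 from limma. Slc25a1, the citrate carrier that exports citrate for lipid synthesis, rose less. In heme-fed KO mice Slc25a1 had a lowest, median and highest signal of 1612, 1786 and 1919.9, and in control KO mice of 1424, 1502 and 1579. Heme-fed WT mice had 1609, 1856 and 1993 and the 5 control WT mice 1336, 1399, 1458, 1493 and 1568. In each genotype the lowest heme-fed mouse was above the highest control. On the log2 scale Slc25a1 changed by 0.25 ± 0.057 (SE) in KO mice (limma, adjusted p = 0.00187) and by 0.32 ± 0.060 in WT mice (adjusted p = 0.0003). Slc25a11, the oxoglutarate-malate carrier, was the only member called in WT mice alone. For Slc25a11 the lowest, median and highest values were 1220.0, 1276 and 1413 in heme-fed KO mice, against 1065, 1146 and 1237 in control KO mice. WT mice had 1220.0, 1396 and 1535 on heme and 1002, 1058, 1086, 1105 and 1129 in the 5 mice without it. The KO groups overlapped and the WT groups did not. In WT mice Slc25a11 had a log2 fold change of 0.37 ± 0.058 (SE, limma, adjusted p = 4.67e-05). In KO mice Slc25a11 was at 0.17 (log2 fold change, 95% confidence interval 0.06 to 0.29, adjusted p = 0.0219), which did not pass the threshold. Slc25a21, the oxodicarboxylate carrier, was below 20 throughout.

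**Figure D2:**
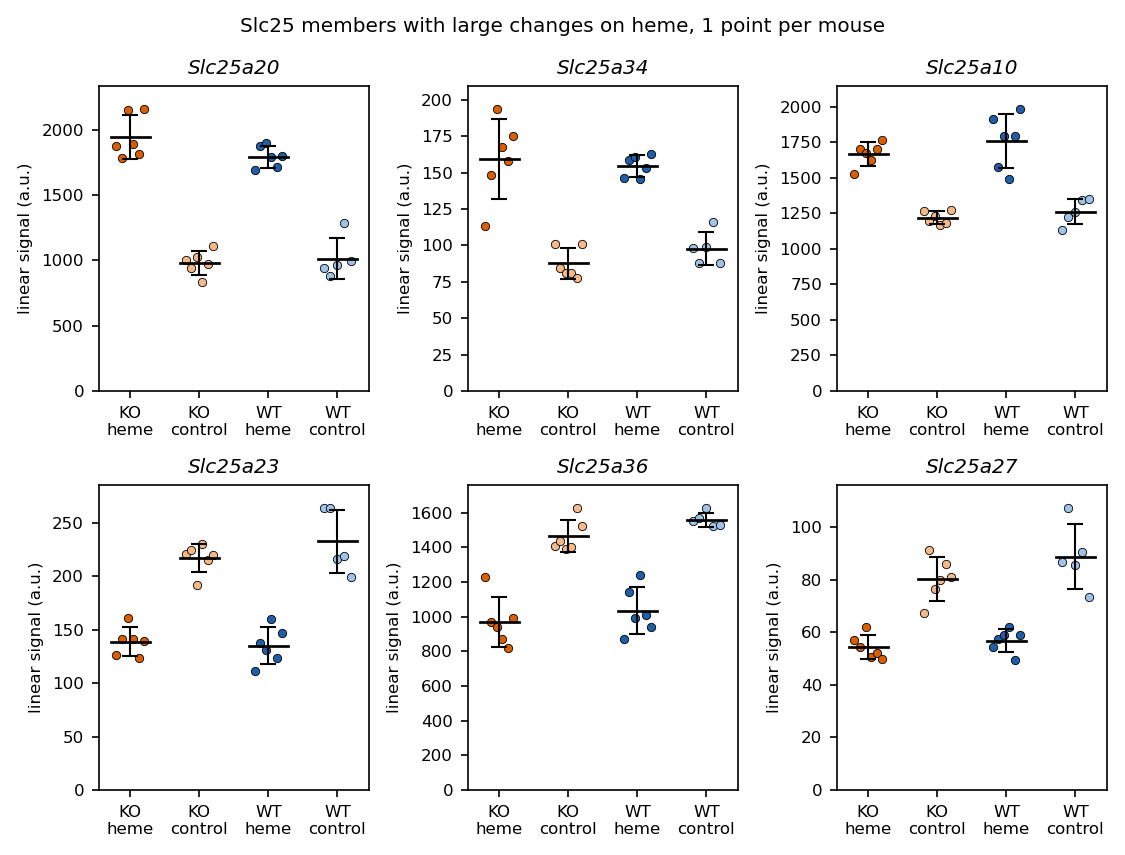
Linear signal of the 6 members named in the panel titles, with 1 point per mouse, a line at the group mean and a bar for the SD, in KO heme, KO control, WT heme and WT control mice. Slc25a20, Slc25a34 and Slc25a10 were higher and Slc25a23, Slc25a36 and Slc25a27 lower in every heme-fed mouse than in any control mouse of the same genotype.

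Of the 8 carriers of adenine nucleotides, phosphate and ATP-Mg, 4 were called higher and 1 lower in KO mice, and 3 higher and 1 lower in WT mice. In all 62.5% were called in KO mice and 50% in WT mice, against 18.4% and 17.9% of all genes. The largest rise among them was that of Slc25a4, the adenine nucleotide translocator ANT1 that prevails in muscle. The lowest, median and highest signals of Slc25a4 were 316, 342 and 409 in heme-fed KO mice, against 213, 232 and 290.1 in control KO mice. In WT mice they were 283, 391 and 454 on heme (lowest, median and highest) and 223, 224, 256, 285 and 383 in the 5 control mice. The KO groups were apart, whereas in WT mice 2 control mice, replicates 1 and 2, lay within the heme-fed range. These 2 mice also had the highest smooth muscle signals. Slc25a4 differed by 0.56 ± 0.12 (log2, SE) in KO mice and 0.47 ± 0.13 in WT mice, with adjusted p = 0.00143 and 0.00816 from limma. With smooth muscle signal as a covariate the log2 fold change was 0.72 in KO mice and 0.82 in WT mice. The WT call was lost when any of 12 single arrays was left out, with adjusted p up to 0.0306 (without WT control replicate 4), and was made in all 23 such fits in KO mice.

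Smaller changes were seen in Slc25a5, the translocator ANT2 of proliferating cells, and in Slc25a3, which carries the phosphate for ATP synthesis. Signals of Slc25a5 were 8620.5, 9122 and 9338 (lowest, median and highest) in heme-fed KO mice and 8011, 8122 and 8223 in control KO mice. The WT values were 8800.2, 9294 and 9359 on heme, against 7999, 8025, 8247, 8249 and 8258 in the 5 controls. All heme-fed mice were above the controls in both genotypes, though the groups lay close together. On the log2 scale Slc25a5 changed by 0.16 ± 0.032 (SE) in KO mice (limma, adjusted p = 0.000615) and by 0.17 ± 0.034 in WT mice (adjusted p = 0.000517). The 3 single-gene probe sets of Slc25a5 gave log2 fold changes of 0.16 to 0.20 in KO mice and 0.16 to 0.17 in WT mice. Slc25a3 averaged 3951 ± 217 in heme-fed KO mice and 3543 ± 55.7 in control KO mice (SD), a log2 fold change of 0.16 ± 0.040 (SE, limma, adjusted p = 0.00463). In WT mice Slc25a3 had a log2 fold change of 0.04 (95% confidence interval -0.05 to 0.12), which did not pass. The call of Slc25a3 in KO mice was lost without any 1 of KO control replicates 1, 4 and 5 or KO heme replicates 4 and 6, with adjusted p up to 0.0155.

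**Figure D3:**
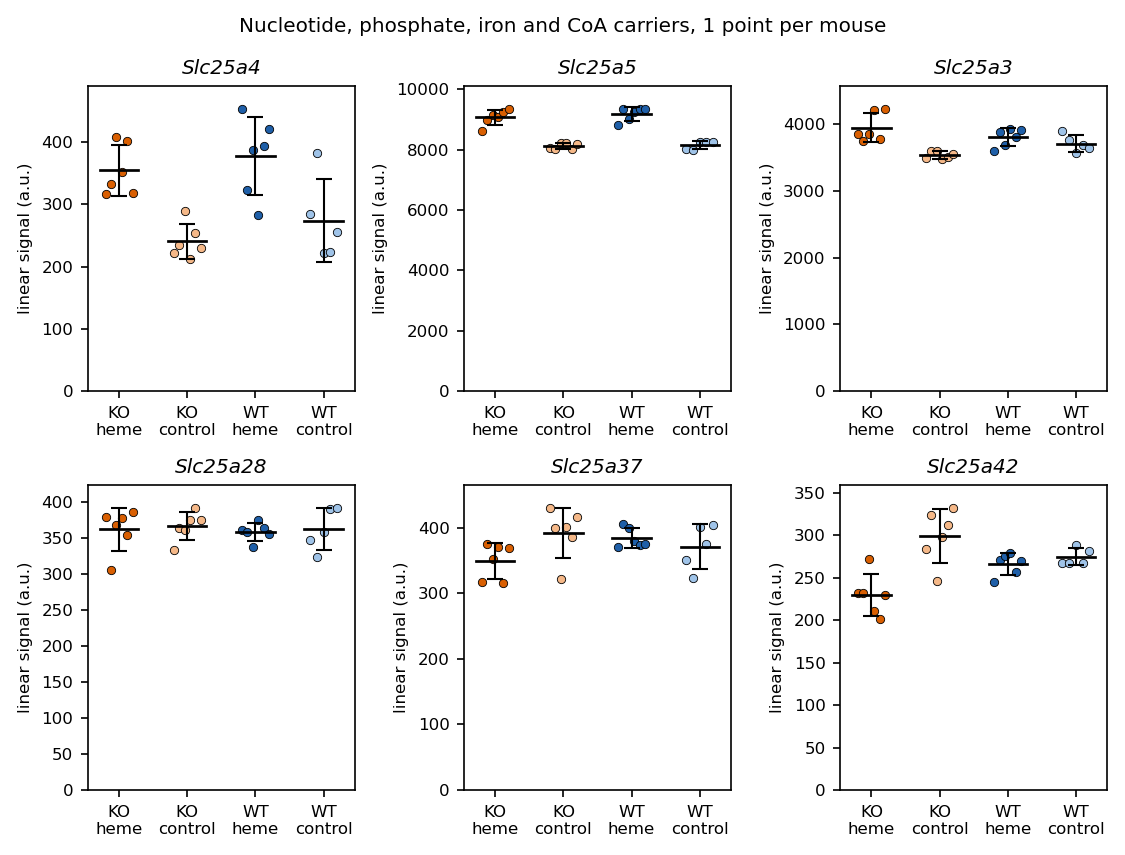
Linear signal of carriers of nucleotides (Slc25a4, Slc25a5), phosphate (Slc25a3), iron (Slc25a28, Slc25a37) and coenzyme A (Slc25a42), with 1 point per mouse, the group mean and the SD, in KO heme, KO control, WT heme and WT control mice. Each axis starts at 0, and the small shift of Slc25a5 and the overlapping diet groups of both iron carriers stand beside the larger rise of Slc25a4.

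The calcium-regulated ATP-Mg/phosphate carriers, which set the adenine nucleotide content of the matrix, moved in opposite directions. Slc25a24 was called higher in both genotypes. In heme-fed KO mice Slc25a24 had a lowest, median and highest signal of 1425, 1958 and 1997, and in control KO mice of 1314, 1353 and 1493. Heme-fed WT mice had 1596, 1821 and 2015 and the 5 control WT mice 1351, 1385, 1436, 1466 and 1498. The WT groups were apart, and in KO mice 1 heme-fed mouse, replicate 1, was within the control range while the other 5 were above it. Slc25a24 differed by 0.42 ± 0.072 (log2, SE) in KO mice and 0.34 ± 0.075 in WT mice, with adjusted p = 0.000119 and 0.00154 from limma.

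Slc25a23, a paralog of Slc25a24, had the largest fall of the family. Its promoter, at chr17:57059814-57060113 on the minus strand of GRCm38.p6, is printed as the counterpart of the rising members, and capitals mark a match to the antioxidant response element core TGACNNNGC on the opposite strand:
Slc25a23: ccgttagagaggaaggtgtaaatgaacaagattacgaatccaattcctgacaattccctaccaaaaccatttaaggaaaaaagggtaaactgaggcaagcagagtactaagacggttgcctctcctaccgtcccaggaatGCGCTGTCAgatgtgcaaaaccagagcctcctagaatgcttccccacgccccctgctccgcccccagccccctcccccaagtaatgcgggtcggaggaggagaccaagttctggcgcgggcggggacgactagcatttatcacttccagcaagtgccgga
For Slc25a23 the lowest, median and highest values were 123, 140.5 and 161 in heme-fed KO mice, against 192, 220.4 and 231 in control KO mice. WT mice had 112, 134 and 160.0 on heme and 199.7, 216, 219.5, 264 and 264 in the 5 mice without it. Every heme-fed mouse was below every control mouse. On the log2 scale Slc25a23 changed by -0.65 ± 0.085 (SE) in KO mice (limma, adjusted p = 6.59e-06) and by -0.78 ± 0.089 in WT mice (adjusted p = 1.23e-06). The other paralogs, Slc25a25 and Slc25a41, were called in no comparison, and nor was Slc25a31, the translocator ANT4 of germ cells.

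The 9 amino acid carriers included 3 called higher in KO mice (33.3%, against 9.23% of all genes). In WT mice 1 was called higher (11.1%, against 9.60%), which is near the share of all genes. Slc25a22 is a carrier of glutamate. The lowest, median and highest signals of Slc25a22 were 139, 177 and 202 in heme-fed KO mice, against 115, 134 and 155 in control KO mice. In WT mice they were 115, 143 and 157 on heme (lowest, median and highest) and 112, 114, 117, 121 and 138 in the 5 control mice. In KO mice 5 of 6 heme-fed mice were above all controls, and the WT groups overlapped more. In KO mice Slc25a22 had a log2 fold change of 0.40 ± 0.086 (SE, limma, adjusted p = 0.00103). In WT mice the log2 fold change was 0.23 (95% confidence interval 0.04 to 0.41, adjusted p = 0.0678). The aspartate-glutamate carriers Slc25a12 (aralar) and Slc25a13 (citrin), which drive the malate-aspartate shuttle, had like shifts. Slc25a12 averaged 734 ± 53.7 in heme-fed KO mice and 621 ± 49.1 in control KO mice (SD), a log2 fold change of 0.24 ± 0.060 (SE, limma, adjusted p = 0.00353). Signals of Slc25a13 were 319, 389 and 408 (lowest, median and highest) in heme-fed KO mice and 293, 321 and 342 in control KO mice. The WT values were 346, 364 and 376 on heme, against 277, 306, 315, 330.3 and 332 in the 5 controls. In WT mice no values overlapped, and in KO mice 1 heme-fed mouse, replicate 1, lay within the control range. On the log2 scale Slc25a13 changed by 0.25 ± 0.058 (SE) in KO mice (limma, adjusted p = 0.00219) and by 0.22 ± 0.061 in WT mice (adjusted p = 0.00968). For Slc25a12 the WT difference was 0.18 on the log2 scale (adjusted p = 0.0355) and was not called. Slc25a13 in WT mice passed by a narrow margin, with the call lost without any 1 of 18 single arrays (adjusted p up to 0.0432, without WT control replicate 2), and the call of Slc25a12 in KO mice was lost without KO control replicates 1 or 4 or KO heme replicates 4 or 5 (adjusted p up to 0.0115). Slc25a38, the glycine carrier that feeds heme synthesis, was at 0.17 in KO mice (adjusted p = 0.117) and 0.24 in WT mice (adjusted p = 0.0312) on the log2 scale and was called in neither. The other 5, Slc25a2, Slc25a15, Slc25a18, Slc25a29 and Slc25a44, were not called.

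Carriers of cofactors, nucleotides and glutathione were called in both directions. Of these 10 genes, 2 were called higher and 2 lower in KO mice (40% in all, against 18.4% of all genes). In WT mice 1 was called each way (20% in all, against 17.9%), which is near the share of all genes. Slc25a36, which imports pyrimidine nucleotides, fell in both genotypes. In heme-fed KO mice Slc25a36 had a lowest, median and highest signal of 819, 954 and 1231, and in control KO mice of 1392, 1422 and 1629. Heme-fed WT mice had 874, 1003 and 1243 and the 5 control WT mice 1522, 1530.0, 1549, 1571 and 1625. The heme-fed mice lay below all controls. For Slc25a36 the log2 fold change came to -0.60 ± 0.084 (SE) in KO mice and -0.60 ± 0.088 in WT mice (limma, adjusted p = 1.24e-05 and 2.32e-05). A further single-gene probe set of Slc25a36 gave log2 fold changes of -0.61 in KO mice and -0.53 in WT mice.

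Slc25a51, the NAD carrier of the inner membrane, rose by equal amounts. For Slc25a51 the lowest, median and highest values were 642, 708 and 768 in heme-fed KO mice, against 565, 592 and 613 in control KO mice. WT mice had 608, 713 and 805 on heme and 564, 588, 592, 616 and 623 in the 5 mice without it. Heme-fed and control mice were apart in KO mice, and in WT mice 1 heme-fed mouse lay within the control range. Slc25a51 differed by 0.25 ± 0.053 (log2, SE) in KO mice and 0.25 ± 0.056 in WT mice, with adjusted p = 0.000842 and 0.00164 from limma. Slc25a39, which carries glutathione, was called higher in KO mice, where the groups overlapped. Slc25a39 averaged 1367 ± 62.7 in heme-fed KO mice and 1209 ± 62.1 in control KO mice (SD), a log2 fold change of 0.18 ± 0.050 (SE, limma, adjusted p = 0.00897). This call was lost without any 1 of 16 single arrays (adjusted p up to 0.0239, without KO control replicate 5). In WT mice the difference of Slc25a39 was 0.17 on the log2 scale (adjusted p = 0.0144), which was not called. Its paralog Slc25a40 had 0.23 in KO mice and 0.25 in WT mice (adjusted p = 0.0211 and 0.017) and was not called either. A further, dimmer single-gene probe set of Slc25a40 gave less even values, 0.07 in KO mice and 0.31 in WT mice.

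Slc25a42, which carries coenzyme A, fell in KO mice. The lowest, median and highest signals of Slc25a42 were 202, 231 and 272 in heme-fed KO mice, against 246, 305 and 332 in control KO mice. In WT mice they were 245, 270.3 and 279 on heme (lowest, median and highest) and 267, 267, 267, 282 and 288 in the 5 control mice. In KO mice 5 of 6 heme-fed mice were below all controls, and in WT mice the diet groups overlapped. In KO mice Slc25a42 had a log2 fold change of -0.38 ± 0.069 (SE, limma, adjusted p = 0.000224). In WT mice the log2 fold change was -0.04 (95% confidence interval -0.19 to 0.11). Slc25a16, Slc25a17, Slc25a26, Slc25a32 and Slc25a33 were not called in either genotype. Slc25a17 came close in KO mice, at 0.15 on the log2 scale (limma, adjusted p = 0.0111), against 0.07 in WT mice (adjusted p = 0.297).

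The mitoferrins, which import the iron for heme and iron-sulfur cluster synthesis, were not called in any comparison. Signals of Slc25a28 were 305, 373 and 386 (lowest, median and highest) in heme-fed KO mice and 334, 369 and 392 in control KO mice. The WT values were 338, 359.5 and 375 on heme, against 324, 346, 358, 390.0 and 392 in the 5 controls. Diet groups of Slc25a28 (mitoferrin 2) overlapped widely. Its log2 fold change was -0.02 in KO mice (95% confidence interval -0.14 to 0.10) and -0.01 in WT mice (-0.14 to 0.11). Mitoferrin 1, Slc25a37, is the form of red cell precursors. In heme-fed KO mice Slc25a37 had a lowest, median and highest signal of 315, 360.5 and 376, and in control KO mice of 321, 401 and 431. Heme-fed WT mice had 371, 377 and 406 and the 5 control WT mice 324, 351, 376, 402 and 405. For Slc25a37 the ranges overlapped as well. Slc25a37 differed on the log2 scale by -0.16 in KO mice (95% confidence interval -0.31 to -0.02, adjusted p = 0.0773) and 0.05 in WT mice (-0.10 to 0.20, adjusted p = 0.656). In WT mice both intervals include changes in either direction.

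Of 3 members that resemble uncoupling proteins, Slc25a27 (UCP4, best known from brain) fell in both genotypes. For Slc25a27 the lowest, median and highest values were 49.7, 53.2 and 62.0 in heme-fed KO mice, against 67.3, 80.4 and 91.4 in control KO mice. WT mice had 49.3, 58.0 and 61.8 on heme and 73.2, 85.4, 86.8, 90.7 and 107 in the 5 mice without it. No heme-fed mouse reached the control range. Slc25a27 differed by -0.56 ± 0.082 (log2, SE) in KO mice and -0.64 ± 0.086 in WT mice, with adjusted p = 2.29e-05 and 1.02e-05 from limma. Slc25a30 (KMCP1, first described in kidney) was called higher in KO mice alone. The lowest, median and highest signals of Slc25a30 were 141, 168 and 196 in heme-fed KO mice, against 118, 139 and 148 in control KO mice. In WT mice they were 134, 139.7 and 147 on heme (lowest, median and highest) and 138, 139, 139, 144 and 153 in the 5 control mice. In KO mice 5 of 6 heme-fed mice were above all controls, and in WT mice the diet groups overlapped widely. In KO mice Slc25a30 had a log2 fold change of 0.29 ± 0.070 (SE, limma, adjusted p = 0.00288). In WT mice the log2 fold change of Slc25a30 was -0.03 (95% confidence interval -0.18 to 0.12). Without KO heme replicate 5 its KO call was lost (adjusted p = 0.0105). Slc25a14 was not called.

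Members of other or unknown substrate held 2 calls higher and 1 lower of 9 in each genotype. That is 33.3% called in each, against 18.4% of all genes in KO mice and 17.9% in WT mice. The lower call was near the share of all genes called lower (9.20% and 8.29%). Slc25a34, an orphan carrier, had the second-largest rise of the called members in both genotypes. Its promoter is shown for that reason, from chr4:141623785-141624084 on the minus strand of GRCm38.p6, with a match to the nuclear receptor motif AGGTCA, found on the opposite strand, in capitals:
Slc25a34: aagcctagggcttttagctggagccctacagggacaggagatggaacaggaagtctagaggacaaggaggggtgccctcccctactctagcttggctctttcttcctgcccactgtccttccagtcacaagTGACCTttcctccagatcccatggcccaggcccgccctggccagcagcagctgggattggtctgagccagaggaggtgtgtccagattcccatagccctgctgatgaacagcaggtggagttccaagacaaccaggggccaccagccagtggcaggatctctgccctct
Signals of Slc25a34 were 113, 163 and 194 (lowest, median and highest) in heme-fed KO mice and 77.6, 82.9 and 101 in control KO mice. The WT values were 146, 156 and 162 on heme, against 87.6, 88.2, 98.1, 99.0 and 116 in the 5 controls. The heme-fed mice were above the controls without overlap. For Slc25a34 the log2 fold change came to 0.85 ± 0.10 (SE) in KO mice and 0.67 ± 0.10 in WT mice (limma, adjusted p = 1.74e-06 and 5.11e-05).

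Slc25a35, also an orphan carrier, moved the other way. In heme-fed KO mice Slc25a35 had a lowest, median and highest signal of 787, 931 and 1064, and in control KO mice of 1226, 1292 and 1414. Heme-fed WT mice had 902, 1016 and 1084 and the 5 control WT mice 1154, 1201, 1218, 1280.0 and 1285. All heme-fed mice were below the controls in both genotypes. Slc25a35 differed by -0.50 ± 0.063 (log2, SE) in KO mice and -0.28 ± 0.066 in WT mice, with adjusted p = 3.92e-06 and 0.00258 from limma. Slc25a48 was a dim member that was called higher. For Slc25a48 the lowest, median and highest values were 38.0, 46.4 and 61.3 in heme-fed KO mice, against 32.2, 38.2 and 42.0 in control KO mice. WT mice had 47.3, 51.6 and 56.6 on heme and 37.9, 37.9, 37.9, 38.4 and 40.7 in the 5 mice without it. In KO mice its diet groups overlapped and in WT mice they did not. On the log2 scale Slc25a48 changed by 0.36 ± 0.088 (SE) in KO mice (limma, adjusted p = 0.0032) and by 0.41 ± 0.093 in WT mice (adjusted p = 0.00168). Its KO call was lost without KO control replicate 4 (adjusted p = 0.0105). Slc25a54 reached an adjusted p of 0.00636 in WT mice, at a log2 fold change of 0.56, but with mean signals of 14.3 on heme and 9.42 on the control diet it was under the signal minimum. Slc25a43, Slc25a45, Slc25a46, Slc25a47 and Slc25a53 were not called. Slc25a46 came close in WT mice, where its diet groups did not overlap. Its log2 fold change was 0.20 in WT mice (limma, adjusted p = 0.0104) and 0.05 in KO mice (adjusted p = 0.564). A further, dimmer single-gene probe set of Slc25a46 gave 0.21 in WT mice and 0.19 in KO mice.

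No member passed the test between KO and WT mice. On the heme diet 0 members were called between KO and WT mice, with 4 at an unadjusted p below 0.05, against 0.234% of all genes called (0.133% higher and 0.101% lower) and 12.2% at that unadjusted p. On the control diet 0 were called and 1 had an unadjusted p below 0.05, against 0.0531% of all genes called (0.0159% higher and 0.0372% lower) and 5.74% at that unadjusted p. No member separated KO from WT mice without overlap on either diet, as 0.882% and 0.893% of all genes did. Log2 fold changes of KO over WT were -0.24 to 0.32 on heme and -0.24 to 0.19 on the control diet, and the outermost 95% bounds were -0.54 and 0.50 on heme and -0.44 and 0.49 on the control diet, which leaves room for differences of that size.

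The members nearest to a call on heme were Slc25a30 and Slc25a22. The lowest, median and highest signals of Slc25a30 were 141, 168 and 196 in heme-fed KO mice and 134, 139.7 and 147 in heme-fed WT mice, with a log2 fold change of 0.26 ± 0.070 (SE, limma, adjusted p = 0.0794). The lowest, median and highest signals of Slc25a22 were 139, 177 and 202 in heme-fed KO mice and 115, 143 and 157 in heme-fed WT mice, with a log2 fold change of 0.32 ± 0.086 (SE, limma, adjusted p = 0.091). Slc25a42 was -0.22 on the log2 scale in heme-fed KO over WT mice (limma, adjusted p = 0.16) and Slc25a2, the ornithine carrier ORC2, 0.25 (adjusted p = 0.278). Slc25a2 was at 46.2 in KO heme replicate 4 and at 28.9 to 31.7 in the other 5 KO heme mice, and without that mouse its difference was 0.14 (adjusted p = 0.535). For Slc25a22 the difference was 0.38 without KO heme replicate 1 (limma, adjusted p = 0.0167) and 0.26 without WT heme replicate 2 (0.192). For Slc25a30 it was 0.31 without KO heme replicate 2 (limma, adjusted p = 0.0255) and 0.23 without KO heme replicate 5 (0.185). None of these passed the threshold. On the control diet the lowest adjusted p was that of Slc25a41 (0.669), at -0.24 on the log2 scale. The comparisons on heme share their KO and WT heme-fed mice with the diet comparisons above.

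The difference of the heme effects, KO minus WT, was tested itself, because a call in a single genotype does not show that the genotypes differ. It was called for 0 members, against 0.0106% of all genes. At an unadjusted p below 0.05 there were 7 members (15.2%, against 6.75% of all genes), namely Slc25a42, Slc25a30, Slc25a41, Slc25a11, Slc25a35, Slc25a37 and Slc25a3. For Slc25a42 the difference was -0.34 on the log2 scale (95% confidence interval -0.54 to -0.13, limma, adjusted p = 0.5). For Slc25a30 the difference was 0.32 on the log2 scale (95% confidence interval 0.11 to 0.53, limma, adjusted p = 0.544). For Slc25a11 the difference was -0.20 on the log2 scale (95% confidence interval -0.37 to -0.03, limma, adjusted p = 0.652). The others were at 0.30 (Slc25a41), -0.22 (Slc25a35), -0.22 (Slc25a37) and 0.12 (Slc25a3), and none passed after adjustment. The lowest adjusted p of any member was 0.5, and the outermost 95% bounds were -0.63 and 0.54. The heme effect had the same sign in both genotypes for 40 of 46 members, a count for which no share over all genes was taken. For Slc25a20 the heme effects differed by 0.15 (95% confidence interval -0.08 to 0.39, adjusted p = 0.835) and for Slc25a34 by 0.18 (-0.12 to 0.48, adjusted p = 0.853).

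**Figure D4:**
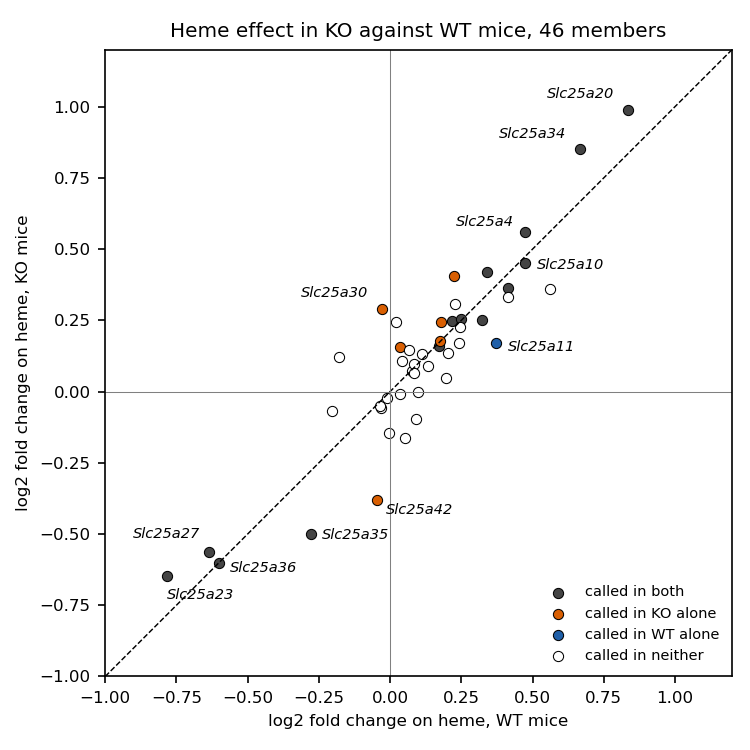
Heme effect in KO mice (vertical) against that in WT mice (horizontal) for the 46 members, as log2 fold changes from limma, with a dashed line of equal effects. Fill shows in which genotype a member was called, with 14 called in both, 6 in KO mice alone, 1 in WT mice alone and 25 in neither.

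Smooth muscle markers had lower medians on heme in both genotypes. The median log2 fold change of the 14 markers was -0.50 in KO mice, where all 14 had a negative value and 7 an unadjusted p below 0.05, and -1.14 in WT mice, where all 14 were negative too and 13 had such a p. With the mean log2 signal of the 14 smooth muscle markers as a covariate, 18 members were called in KO mice (39.1%, against 16% of all genes). In WT mice 8 were called (17.4%, against 6.54%), 4 higher (against 3.56%) and 4 lower (against 2.98%). The mean signal was 7.564 to 8.09 in WT heme and 8.23 to 9.734 in WT control mice. Diet and covariate therefore cannot be fully told apart in WT mice. Of the KO calls 17 were shared with the fit without the covariate, the calls of Slc25a1, Slc25a13 and Slc25a39 being lost and Slc25a17, a peroxisomal carrier, gained. The 4 that remained higher in WT mice were Slc25a20, Slc25a10, Slc25a11 and Slc25a4, and the 4 lower ones were Slc25a23, Slc25a36, Slc25a27 and Slc25a35. With the covariate Slc25a20 had a log2 fold change of 0.95 in KO mice and 0.74 in WT mice, and Slc25a23 one of -0.61 in KO mice and -0.69 in WT mice. In WT mice 7 rises no longer passed. The values with the covariate were 0.53 for Slc25a34 (adjusted p = 0.0142), 0.50 for Slc25a48 (0.0117), 0.26 for Slc25a1 (0.0368), 0.22 for Slc25a51 (0.0553), 0.12 for Slc25a5 (0.0723), 0.26 for Slc25a24 (0.098) and 0.05 for Slc25a13 (0.675), so that Slc25a48 was larger than without it and Slc25a13 moved most. The 2 WT control mice of highest smooth muscle signal were also left out, a choice made after seeing the data. Without them 19 members were called in KO mice (against 18.1% of all genes) and 11 in WT mice (against 9.7%). Of these WT calls 7 were higher (against 5.3% of all genes) and 4 lower (against 4.4%). The part of smooth muscle in the results was not tested beyond this. Cycling cell markers moved with the diet too, with 4 of 4 called higher in both genotypes and summed signals of 2015 to 3084 in KO heme and 1179 to 1873 in KO control mice, and 2193 to 3368 in WT heme and 1459 to 1980 in WT control mice, and their part in the result was not tested. Nor was that of the goblet cell markers, of which 3 of 4 were called lower in KO mice and 2 of 4 in WT mice.

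**Figure D5:**
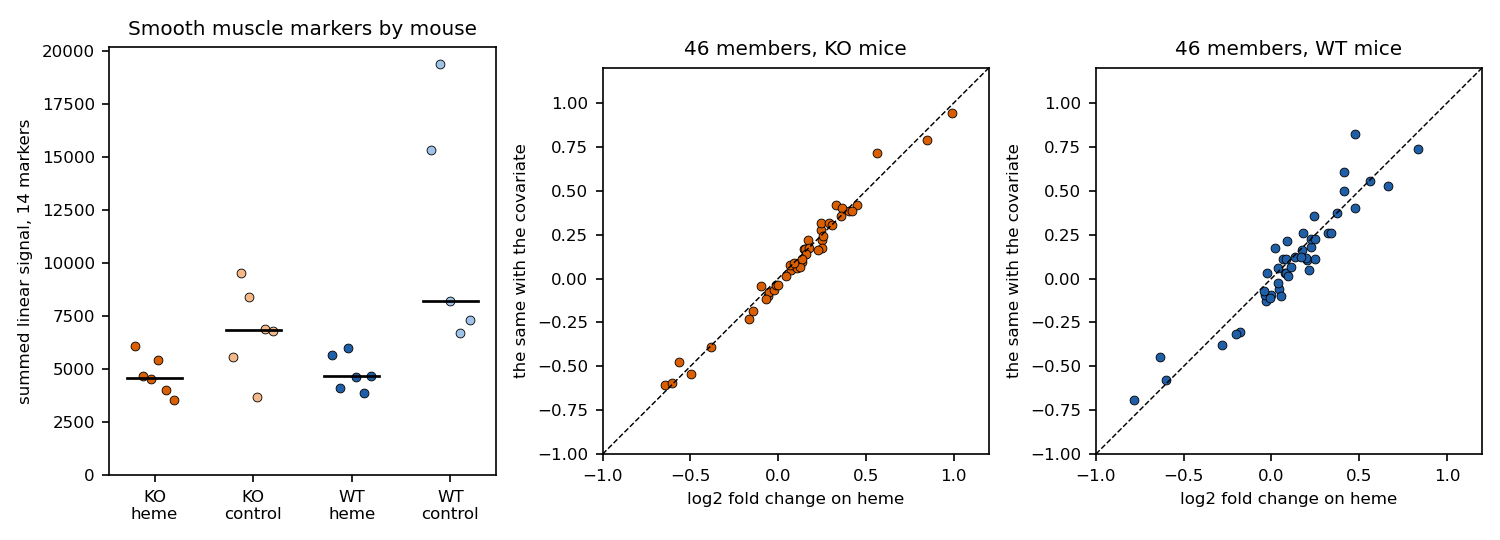
Left, summed linear signal of the 14 smooth muscle markers in each mouse, with the group median as a line. Middle and right, log2 fold change on heme of the 46 members with the smooth muscle covariate (vertical) against that without it (horizontal) in KO and WT mice, with a dashed line of equality. The 2 WT control mice at 15350 and 19410 stand apart, and the points lie closer to the line in KO mice than in WT mice.

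Genes that work beside the carriers were followed as lists, to be read against the 9.23% of all genes called higher and 9.20% called lower in KO mice, and 9.60% and 8.29% in WT mice. The import machinery of the carriers, in which receptors of the outer membrane and small Tim chaperones pass the proteins to the TIM22 complex, had 7 of 12 measured genes (58.3%) called higher and 0 lower in each genotype, with a median log2 fold change of 0.35 in KO mice and 0.34 in WT mice. Tomm40, the pore of the outer membrane, rose by 0.68 in KO mice and 0.69 in WT mice on the log2 scale (limma, adjusted p = 0.000202 and 0.000289). Timm8a1, a Tim chaperone, rose by 0.61 and 0.68 (adjusted p = 0.00112 and 0.000698). Timm22, the carrier translocase itself, was at 0.17 in KO mice (adjusted p = 0.0308), where it was not called, and rose by 0.39 in WT mice (adjusted p = 3.9e-05).

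Partners of the carnitine carrier were called higher for 4 of 7 measured genes (57.1%) in both genotypes, with none lower. Cpt2, which releases the fatty acids from carnitine in the matrix, rose by 0.87 in KO mice and 0.77 in WT mice (adjusted p = 2.94e-09 and 4.66e-08). Slc22a5, the carnitine transporter of the plasma membrane, rose by 0.62 in KO mice and 0.80 in WT mice (adjusted p = 0.000189 and 2.15e-05). All 4 enzymes of the malate-aspartate shuttle were called higher in both genotypes, and Got1, the cytosolic transaminase, rose by 0.75 in KO mice and 0.85 in WT mice (adjusted p = 5.41e-07 and 2.42e-07).

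Other mitochondrial transport proteins held 6 of 14 called higher and 1 lower in KO mice, and 6 higher and 2 lower in WT mice, the lower calls being near the share of all genes. Vdac1, the porin of the outer membrane, rose by 0.24 in KO mice and 0.24 in WT mice (adjusted p = 2.99e-05 and 6.86e-05), and Sfxn3, a sideroflexin, fell by 0.53 in KO mice and 0.57 in WT mice (adjusted p = 2.76e-05 and 1.93e-05). Of the family members with other symbols 1 of 4 measured was called, higher in both genotypes, which was Mtch2, an outer membrane insertase (0.27 in KO mice and 0.22 in WT mice, adjusted p = 0.000238 and 0.00206). Regulators of mitochondrial biogenesis had 1 of 8 called higher and 1 lower in each genotype, a share near that of all genes. The lower gene was Ppargc1a, the coactivator PGC-1α, which fell by 0.85 in KO mice and 0.66 in WT mice (adjusted p = 3.95e-06 and 0.000125), and the higher one was Polrmt, the mitochondrial RNA polymerase (0.20 in KO mice and 0.26 in WT mice, adjusted p = 0.00566 and 0.0012). Median log2 fold changes were 0.31 in KO mice and 0.25 in WT mice for the carnitine partners, 0.14 and 0.20 for the other transport proteins and 0.13 and 0.14 for the biogenesis regulators, beside -0.01 for all genes in each genotype, and no test of the lists was made.

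Promoters of 300 bases from RefSeq (GRCm38.p6) were available for 36 of the 46 members and searched on both strands. The direct repeat bound by PPARα, AGGTCANAGGTCA, and a looser form, AGGNCANAGGNCA, were found in no member, and in 0.0396% and 0.381% of all 32851 promoters. The single motif AGGTCA, which these repeats contain, was found in Slc25a34, Slc25a39, Slc25a45 and Slc25a47 (11.1% of the members, against 18.1% of all genes). The antioxidant response element core TGACNNNGC was found in 9 members, Slc25a3, Slc25a5, Slc25a14, Slc25a23, Slc25a25, Slc25a33, Slc25a38, Slc25a40 and Slc25a53 (25%, against 14% of all genes). The median GC content of the member promoters was 59.3%, against 52.7% for all promoters. These are matches of letters in a short window and say nothing of whether a factor binds.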

How the data were processed

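Colon mucosa RNA of 23 mice was hybridised by the authors to Affymetrix arrays, and the deposited log2 values came from RMA, which corrects background, normalizes arrays by quantiles and summarises probes. No count depth exists for arrays, and the number of mice limits the precision. A further WT control array was left out by the study for quality. Of 35556 probe sets, 21218 had 1 gene symbol, 1881 several and 12457 none in the platform annotation. The methods define probe sets by a reorganised annotation, whereas the deposited table carries Affymetrix probe set IDs, so the grouping of probes used here may differ from the study's. The single-gene probe set of highest mean was kept, giving 18820 genes. A probe set shared by Dcaf13 and Slc25a32 was not used. The 4 groups were fitted together with limma 3.58.1 in R 4.3.3 without covariates, with Benjamini-Hochberg adjustment over all genes. The study's thresholds were an adjusted p under 0.01 and a mean linear signal over 20. Each array was 1 singly housed mouse. All members were accounted for by role. Given with values in every group were the 8 called members with the largest rise on heme in either genotype, up to 8 with the largest fall (5 were called), any called between genotypes, the mitoferrins, Slc25a4, Slc25a5, Slc25a20 and the largest called change of each role. Other named members were those called elsewhere or lowest in p between genotypes, and other lists name at most 3 called genes. Alternatives covered the signal minimum, the threshold, centring, variance models, array weights, probe-set means, smooth muscle, a replicate block and leaving out each mouse. Members, lists and tests were chosen with earlier results of these data known. The limma fit of the 5 comparisons was also tested on simulated data. Promoters were matched to RefSeq (GRCm38.p6) by Entrez gene number. Protein sequences and a genome were not used here.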

Additional observations from a re-analysis of the deposited data

Results flagged for a closer look

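The 4 groups were screened for 28 members, those called on heme, both mitoferrins and 5 others named above, and for the smooth muscle signal, by the gap between the outermost mouse and the rest. Of 116 groups tested, 7 held such a mouse, and 5.8 are expected by chance. Slc25a13 was at 319 in KO heme replicate 1, with the other 5 mice at 377.7 to 407.8, and the same mouse had the lowest Slc25a24 signal, 1425 against 1824 to 1997. Slc25a2 was at 46.2 in KO heme replicate 4, against 28.91 to 31.72. Slc25a28 was at 305 in KO heme replicate 2, with the others at 354 to 386.3. Slc25a37 was at 321 in KO control replicate 3, against 386.3 to 431. Slc25a48 was at 40.7 in WT control replicate 3, against 37.85 to 38.35 in the other 4. Slc25a54 was at 10.8 in KO control replicate 6, against 8.388 to 9.23, all under the signal minimum. No explanation was tested for these values.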

How the results depend on the processing

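In KO mice the number of members called was 20, and 14 (each pair of groups fitted alone) to 24 (adjusted p under 0.05) under the other settings, with 16% to 27.8% of all genes called. In WT mice it was 15, and 12 to 21 with the exception of the smooth muscle covariate, which gave 8 (4 higher and 4 lower) and, chosen after seeing the data, the removal of the 2 WT control mice with the most smooth muscle signal, which gave 11. Of all genes 13.3% to 27.1% were called in WT mice, and 6.54% and 9.7% under those 2 settings. Leaving out 1 mouse gave 16 to 22 in KO mice and 13 to 17 in WT mice, with 14.7% to 19.2% and 13.7% to 19.1% of all genes called. No alternative called a member between genotypes or for the difference of the heme effects, which were 0 throughout, including 0 to 0 without single mice. The heme effect of Slc25a30 in WT mice, not called, turned to 0.0022 with arrays centred on their median and 0.031 with the covariate. Calls made under every setting and without any single mouse numbered 13 in KO mice and 6 in WT mice (Slc25a10, Slc25a11, Slc25a20, Slc25a23, Slc25a27 and Slc25a36). The looser threshold and the lack of a signal minimum could not lose a call. Leaving out a mouse of the other genotype did not change the log2 fold change on heme, so those fits could do less to test it. The WT call of Slc25a35 was lost with centred arrays (adjusted p = 0.0155). Replicate numbers did not pair the mice (33 pairs of equal number, r of -0.314 to 0.337, 13 over 0.1), and with a replicate block 19 members were called in KO mice (18.6% of all genes) and 14 in WT mice (17.2%), and 0 in each other comparison. The difference of heme effects has no value where each pair of groups was fitted alone. Genotype is confounded with substrain.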
